A study of Homo sapiens with 4 samples.

Results

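The peaks described here are the MYC peaks of HAP1 cells that carried the active chromatin mark H3K27ac and had the canonical MYC E-box, CACGTG, at the summit. They were chosen by 3 conditions on the deposited peak lists and the reference sequence. A MYC peak had to be in the list, it had to share at least 1 bp with an H3K27ac peak, and CACGTG had to lie fully within 100 bp on either side of the MYC summit. Of 1723 MYC peaks, 318 (18.5%) met the rule. They are called marked E-box peaks below. The 784 MYC peaks with an H3K27ac peak split into these 318 (40.6%, exact Clopper-Pearson 95% interval 37.1 to 44.1%) and 466 without an E-box in the window. Of the 939 MYC peaks with no H3K27ac peak, 22 (2.34%, interval 1.47 to 3.53%) had an E-box there.

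Chromatin of wild-type HAP1 cells, a near-haploid line derived from the chronic myeloid leukemia line KBM-7, was sonicated and immunoprecipitated with antibodies against MYC or H3K27ac or with control IgG from normal rabbits. A sample of input DNA was kept as a further control. MYC peaks were called against input, and H3K27ac peaks against IgG. Each of the 4 samples was 1 library, so no value below has a replicate error, and the peak lists carry no read counts, so the number of reads behind a peak is not given. Peaks of 1 library are not replicates of each other, and the intervals and tests cover counting over the peaks only.

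MYC is a basic helix-loop-helix leucine zipper protein that binds DNA as a dimer with MAX. Each partner of the dimer reads an arm of the palindrome CACGTG, and the preferred bases beside the palindrome are known to differ between proteins of this family. Acetylation of lysine 27 of histone H3 marks active promoters and enhancers. Genes of ribosome production, translation, nucleotide synthesis and other growth functions are among the best known targets of MYC.

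Marked E-box peaks with high MYC fold enrichment show what such a site looks like. Each sequence is read on the plus strand of GRCh37 (the same assembly as hg19) and covers the E-box nearest to the summit with 10 bases on each side, or, for the lncRNA gene and NPM1, both E-boxes of the window. Capitals mark CACGTG, and the place given is that of the E-box on canonical GENCODE transcripts.
lncRNA gene without a symbol (chr7:4681734-4681770, outside canonical transcripts): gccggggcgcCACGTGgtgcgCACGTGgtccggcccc
PCBP1 (chr2:70314079-70314104, intron 1 of PCBP1-AS1): gaaagggcccCACGTGcccgcccgcg
SNHG15 (chr7:45026138-45026163, exon 1 of the non-coding RNA): ggtcaggcaaCACGTGgggcccagga
NPM1 (chr5:170815568-170815604, intron 1): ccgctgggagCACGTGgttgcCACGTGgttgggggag
MRPL3 (chr3:131221734-131221759, 5′ untranslated part of exon 1): acgccaccgcCACGTGgacgcagtag
RPS19 (chr19:42364475-42364500, intron 1): gagccgcggcCACGTGcgagcggcag
NME2 (chr17:49244112-49244137, intron 1): cggcggcgccCACGTGgcctccgcgg
SNX5 and MGME1 (chr20:17949319-17949344, 5′ untranslated part of exon 1): gcaaagacgcCACGTGgggcctaccc
G6PC3 (chr17:42148020-42148045, outside canonical transcripts): gccggctgccCACGTGcctgcaacag

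The peak with the highest fold enrichment in the whole MYC list was a marked E-box peak on chromosome 7. Its fold enrichment over input was 34.2 and its −log10 q was 189. The summit lay 170 bp upstream of the nearest transcription start site (TSS), that of an lncRNA gene without a symbol, and 35 bp from the nearer of its 2 E-boxes, which start 11 bp apart. PCBP1, which encodes a poly(C)-binding protein that acts on mRNA stability and translation, had the next value among the marked E-box peaks, 20.2, at a summit 2 bp from a TSS. The TSS of its antisense partner PCBP1-AS1 lies within 1 kb of the same summit. SNHG15, a host of small nucleolar RNAs, had 20.04 and 2 E-boxes. NPM1, the nucleolar chaperone nucleophosmin, had 19.6, and its 2 E-boxes also start 11 bp apart.

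Other high values were close to each other. MRPL3, a protein of the large subunit of the mitochondrial ribosome, had a fold enrichment of 15.5, with the summit 2 bp from the nearest TSS. RPS19, a small-subunit ribosomal protein whose loss underlies some Diamond-Blackfan anemia, had 15.1. NME2, a nucleoside diphosphate kinase, had 14.3 with 2 E-boxes. The same rounded value of 14.3 was found at the start sites shared by SNX5, a sorting nexin, and MGME1, a nuclease of mitochondrial DNA, and at G6PC3, a glucose-6-phosphatase. Both of these windows held 2 E-boxes. Ranked by fold enrichment, the first 10 peaks of the whole MYC list included 5 marked E-box peaks, 2 marked peaks without an E-box and 3 unmarked peaks. The first 100 included 26, 32 and 42 of these, and marked E-box peaks were 18.5% of the whole list.

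MYC fold enrichment and H3K27ac were used to choose the peaks, so their levels are a description. MYC fold enrichment over all 318 marked E-box peaks ran from 2.80 to 34.2, with a median of 5.80 and quartiles of 4.68 and 7.17. The 466 marked peaks without an E-box had a median of 5.55 and a highest value of 23.4, and the 939 unmarked MYC peaks a median of 5.50 and a highest value of 17.7. By −log10 q, 109 of the 318 marked E-box peaks (34.3%) reached 10, beside 34.1% of all MYC peaks. Their median width was 231 bp. At the low end of the fold enrichment stood SLC25A6, an ADP/ATP carrier of the inner mitochondrial membrane, at 2.80. GJC1, a gap junction protein, had 3.03, and a peak on chromosome 19 from 1672460 to 1672742, 19868 bp from the nearest TSS, had 3.33.

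H3K27ac fold enrichment over IgG at the marked E-box peaks had a median of 19.7, with quartiles of 13.9 and 24.99. The median over all 87087 H3K27ac peaks was 5.30. The H3K27ac peaks they overlapped had a median width of 1611 bp, against 363 bp for the whole list. In 305 of 318 the MYC summit itself lay inside an H3K27ac peak, and the MYC and H3K27ac summits were a median of 187.5 bp apart. The 466 marked peaks without an E-box were near these values, with a median H3K27ac fold enrichment of 17.6, a median H3K27ac peak width of 1393.5 bp, a median summit distance of 150 bp and the MYC summit inside an H3K27ac peak in 431 (92.5%). The highest H3K27ac fold enrichment, 52.8, was found at GGACT, an enzyme that breaks down crosslinked protein remnants, where MYC reached 4.01. Both peaks at CLUH, which binds mRNAs of mitochondrial proteins, lay in an H3K27ac peak with 49.8, and their MYC values were 4.85 and 5.94. The lowest H3K27ac value, 2.37, belonged to a peak over coding exon 2 of the elongation factor gene EEF2, with a MYC fold enrichment of 4.37. The distal peak on chromosome 4 described further on followed with 4.01, and a peak on chromosome 16 from 3314798 to 3315047 with 4.45.

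Across the 318 peaks, MYC and H3K27ac fold enrichment had a Spearman rho of −0.02, and across the 466 marked peaks without an E-box the value was −0.01. All points of each group come from the same MYC and H3K27ac libraries, and peaks are not independent samples.

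**Figure D1:**
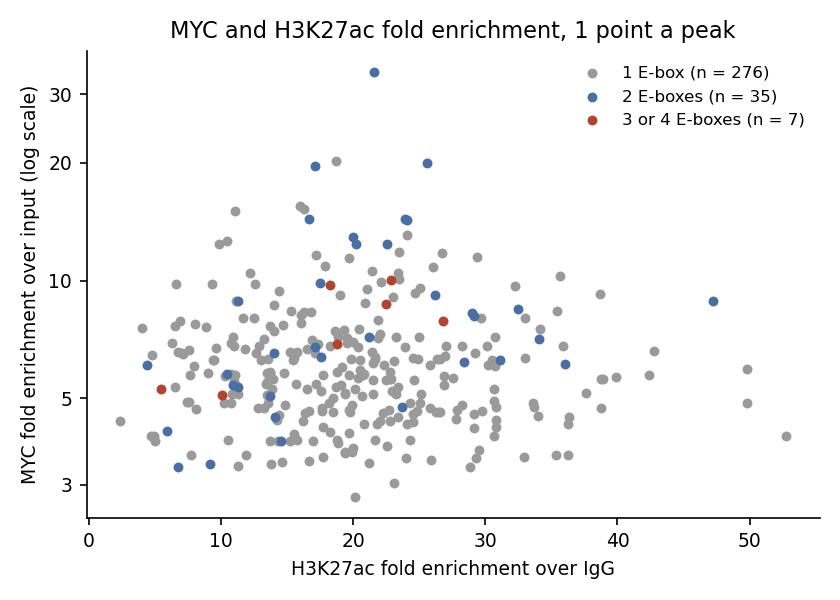
MYC fold enrichment over input (log scale) against H3K27ac fold enrichment over IgG for the 318 marked E-box peaks, 1 point a peak, colored by the number of E-boxes within 100 bp of the summit. The points form a broad cloud with no trend (rho −0.02), and the highest point is the lncRNA gene on chromosome 7 at 34.2.

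Most of the peaks had 1 E-box. In 276 of 318 (86.8%, interval 82.6 to 90.3%) the window held 1 CACGTG, 35 held 2, 4 held 3 and 3 held 4. The median fold enrichment was 5.71 with 1 E-box (n = 276), 7.10 with 2 (n = 35) and 7.88 with 3 or 4 (n = 7). These values come from the readout that chose the peaks and were not tested, and the range with 1 E-box, 2.80 to 20.2, covers most of the others. The windows with the most E-boxes are given next, from the first to the last E-box with 10 bases on each side, except for PRMT1, where the E-box nearest to the summit is shown.
PPRC1 (chr10:103893316-103893486, intron 1): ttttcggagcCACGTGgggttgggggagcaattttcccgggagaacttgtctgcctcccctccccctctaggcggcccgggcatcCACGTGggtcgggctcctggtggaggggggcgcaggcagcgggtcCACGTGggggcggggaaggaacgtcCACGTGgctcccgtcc
BCAR1 (chr16:75267952-75268055, intron 5 of BCAR1): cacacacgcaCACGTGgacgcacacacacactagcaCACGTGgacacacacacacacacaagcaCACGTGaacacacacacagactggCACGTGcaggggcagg
GET4 (chr7:915883-915997, outside canonical transcripts): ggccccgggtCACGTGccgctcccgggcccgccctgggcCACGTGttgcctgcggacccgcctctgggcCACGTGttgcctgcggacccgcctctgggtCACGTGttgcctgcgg
PRMT1 (chr19:50180828-50180853, intron 1): gccaggccccCACGTGgccgctgcgc
INO80 (chr15:41407824-41407909, intron 1): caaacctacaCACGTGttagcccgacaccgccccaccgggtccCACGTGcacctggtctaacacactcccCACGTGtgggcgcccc

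PPRC1, a coactivator of genes for mitochondrial biogenesis, had 4 E-boxes in intron 1 and a fold enrichment of 9.76, with the summit 614 bp downstream of the nearest TSS. A peak in intron 5 of BCAR1, an adaptor protein of focal adhesions, also had 4. It lay 2418 bp from the nearest TSS, its E-boxes stand in a stretch of CA repeats, and its fold enrichment was 5.28. GET4, which takes part in the insertion of tail-anchored proteins into membranes, had 4 E-boxes upstream of its TSS at starts 29, 30 and 30 bp apart, and a fold enrichment of 5.10. PRMT1, the main arginine methyltransferase of type I, had 3 and a fold enrichment of 10.0. INO80, the ATPase of a chromatin remodeling complex, had 3 and a fold enrichment of 8.71. Over the 42 peaks with at least 2 E-boxes, the 52 spacings between the starts of neighboring E-boxes ran from 6 to 156 bp with a median of 38 bp, and 21 were under 30 bp.

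E-boxes were concentrated at the summits of marked peaks. Among the 784 marked MYC peaks, the density of CACGTG was 2.39 per kb and peak within 100 bp of the summit, 0.765 at 100 to 200 bp and 0.312 at 400 to 500 bp. Around the 939 unmarked summits it was 0.138, 0.0905 and 0.101 in the same zones. In the marked E-box peaks the nearest E-box lay a median of 33.5 bp from the summit, measured to its closer end. It was within 25 bp in 131 of 318 (41.2%), and in 199 (62.6%) it lay fully within 50 bp. For comparison, 1129 of 19881 windows of 100 bp on each side of the canonical TSS of protein-coding genes (5.68%) held CACGTG.

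**Figure D2:**
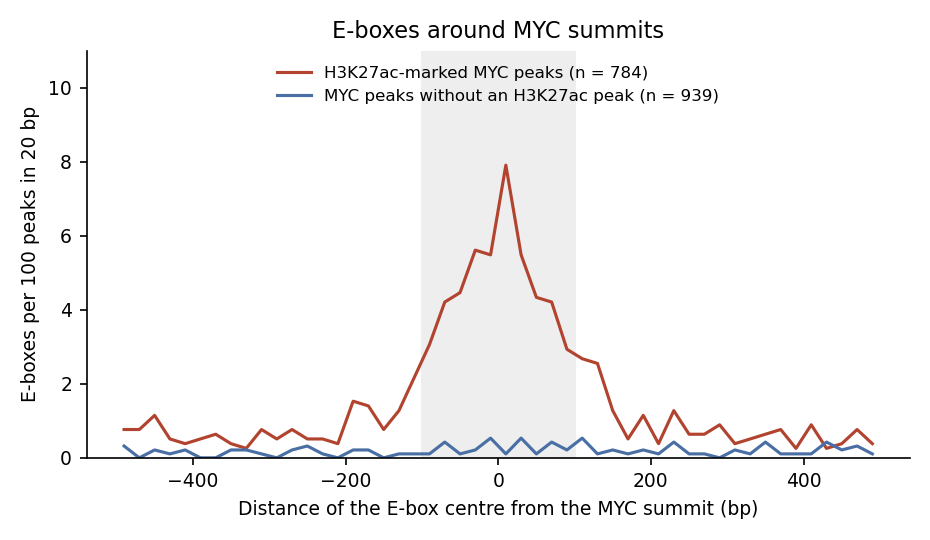
E-boxes per 100 peaks in bins of 20 bp against the distance of the E-box centre from the MYC summit, for the 784 H3K27ac-marked MYC peaks and the 939 unmarked ones. The shaded band is the window of 100 bp on each side that chose the peaks, and the marked peaks rise to 7.91 E-boxes per 100 peaks at the summit.

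At the edge of the window, the farthest E-box inside the limit belonged to B4GALT2, a galactosyltransferase, whose E-box ends 99 bp from the summit (fold enrichment 6.82). SNHG25 (3.40), a host of small nucleolar RNA, IPO5 (6.56), an importin, and the lncRNA gene LINC02643 (6.48) had it at 98 bp. Just outside were the start sites shared by L3HYPDH and JKAMP at 101 bp (5.92), WDR5, a subunit of histone methyltransferase complexes, at 102 bp (4.43) and HSPA9, the mitochondrial HSP70, at 103 bp (5.70). The overlap rule had an edge as well. A peak at an lncRNA gene on chromosome 11 from 118600085 to 118600253 shared 10 bp with an H3K27ac peak, and its window has 293 near-identical copies. At the initiation factor gene EIF4A1 the overlap was 27 bp. Among the unmarked MYC peaks with an E-box, those at CENPF and UBA1 lay 62 and 80 bp from an H3K27ac peak.

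Most marked E-box peaks were promoter peaks. In 297 of 318 (93.4%, interval 90.1 to 95.9%) the summit lay within 1 kb of a TSS, and in 141 (44.3%, interval 38.8 to 49.99%) within 100 bp. Of the 466 marked peaks without an E-box, 52.1% (interval 47.5 to 56.8%) had the summit within 100 bp of a TSS. Within 250 bp the shares were 69.8% (interval 64.4 to 74.8%) and 79.4% (interval 75.4 to 83.0%). The summit lay in an exon for 47.8% (interval 42.2 to 53.4%) and 60.5% (interval 55.9 to 65.0%). The marked E-box peaks were lower in these 3 shares, which were not tested. A protein-coding TSS lay within 1 kb of 279 peaks (87.7%) and an lncRNA TSS within 1 kb of 77 (24.2%). Both kinds were present at 61 peaks, and 16 had an lncRNA TSS without a protein-coding one. TSSs that point away from each other lay within 1 kb of 104 (32.7%). These shares use all annotated transcript starts. With 1 TSS a gene, 80.8% of the marked E-box peaks had a TSS within 1 kb and 72.3% a protein-coding one. An lncRNA TSS was then within 1 kb of 22.6% and a divergent pair within 1 kb of 17.9%. The median distance from summit to TSS was 124 bp, with quartiles of 55.3 and 317 bp.

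The E-box itself lay on either side of the closest annotated start. Among the 297 peaks whose summit lay within 1 kb of a TSS, 160 of the E-boxes nearest to the summit were downstream of the closest TSS and 137 upstream, the median position was 2 bp downstream, and 203 (68.4%) lay within 200 bp. For the 89 genes with such a peak in the gene lists below, positions were also taken to the canonical TSS. By that measure 18 E-boxes lay upstream, and the median position was 121 bp downstream. On canonical transcripts, the E-box was in intron 1 for 115 peaks (36.2%), in a 5′ untranslated exon for 54 (17.0%), in coding sequence for 19 (5.97%) and outside transcripts for 100 (31.4%).

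Of the 6 location shares that were tested, none differed between the marked E-box peaks and the 466 marked peaks without an E-box after adjustment. A TSS within 1 kb was found for 93.4% and 93.6% (two-sided Fisher's exact test, Benjamini-Hochberg adjusted over 6 shares, adjusted p = 1.00). For a protein-coding TSS the shares were 87.7% and 83.0% (Fisher's exact test, adjusted p = 0.167), for an lncRNA TSS 24.2% and 26.8% (adjusted p = 0.545) and for a divergent TSS pair 32.7% and 36.5% (adjusted p = 0.430). The summit lay in a first intron and in no exon for 31.8% and 25.1% (Fisher's exact test, unadjusted p = 0.0428, adjusted p = 0.167). It was downstream of its nearest TSS for 58.8% and 65.2% (Fisher's exact test, adjusted p = 0.167). The last difference passed the adjusted threshold for peaks with a −log10 q of at least 10 (53.2% and 70.5%, Fisher's exact test, adjusted p = 0.0358) and with the E-box within 50 bp (53.3% and 65.8%, adjusted p = 0.0133). The nearest TSS was taken from all annotated starts, and this share was not repeated with 1 TSS a gene.

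**Figure D3:**
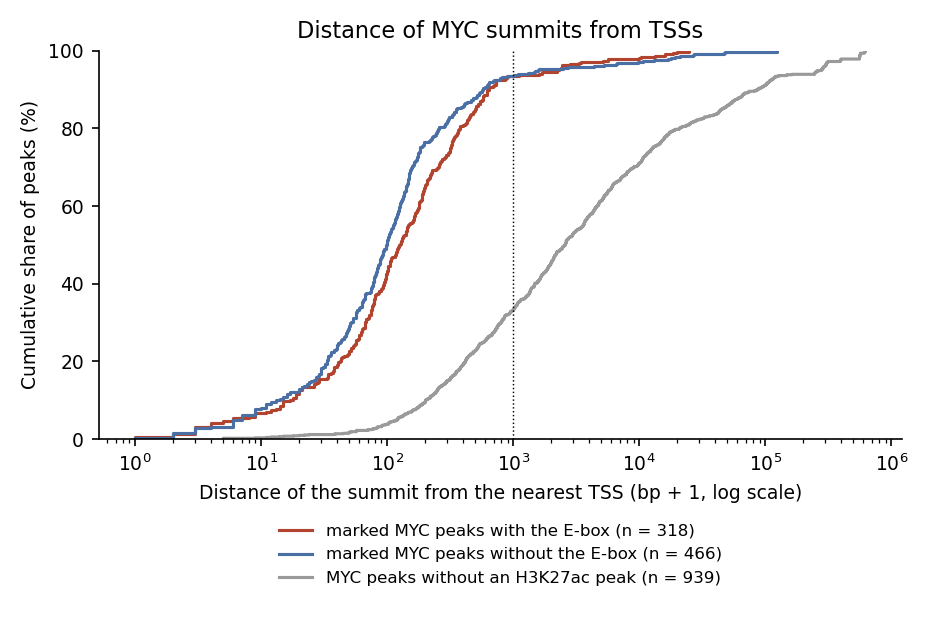
Cumulative share of peaks against the distance of the MYC summit from the nearest TSS (bp plus 1, log scale) for the 318 marked E-box peaks, the 466 marked peaks without an E-box and the 939 unmarked MYC peaks. The dotted line is at 1 kb, where the curves stand at 93.4%, 93.6% and 33.2%.

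Away from promoters, 21 peaks had no TSS within 1 kb. The one with the highest fold enrichment, 12.6, lies in intron 2 of NRP1, a coreceptor of semaphorins and VEGF, 5135 bp from the nearest TSS. A peak on chromosome 4 from 119362678 to 119363175 had 7.54 at 18395 bp from a TSS. Its window has 9 near-identical copies elsewhere in the genome, so reads of these places cannot be told apart with certainty. A peak on chromosome 1 from 245081937 to 245082367 had 7.12 at 24950 bp, the greatest distance among the marked E-box peaks. Another on chromosome 1 from 238027641 to 238027884, in intron 2 of an lncRNA gene, had 6.54 with 2 E-boxes, and 1 on chromosome 11 from 59318509 to 59318797 had 6.46. Near-identical copies of the window were found for 15 of 318 marked E-box peaks (4.72%) and 68 of 466 marked peaks without an E-box (14.6%).

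The bases beside the E-box differed from those beside promoter E-boxes away from MYC peaks. Since CACGTG is a palindrome, the base before it on each strand was read, so that each E-box has 2 such bases. The 370 E-boxes within 100 bp of the summits were compared with 4527 E-boxes that lay under an H3K27ac peak and within 1 kb of a TSS but over 1 kb from every MYC peak. Of the 370, 330 lay under an H3K27ac peak within 1 kb of a TSS, as all of the comparison did. Thymine preceded at least 1 arm of 9.73% of the former (interval 6.91 to 13.2%) and 38.3% of the latter (Fisher's exact test, Benjamini-Hochberg adjusted over 4 bases, adjusted p = 1.12e-32). Cytosine did so for 76.5% (interval 71.8 to 80.7%) and 54.8% (Fisher's exact test, adjusted p = 2.26e-16). For guanine the shares were 53.8% and 45.9% (Fisher's exact test, adjusted p = 0.00538), and for adenine 26.5% and 28.6% (adjusted p = 0.436). By the same exact test the difference for guanine did not pass the threshold with the E-box within 50 bp (adjusted p = 0.168) or without the TSS limit on the comparison (adjusted p = 0.223). H3K27ac differed between these groups too, with a median fold enrichment of 19.9 for the 349 E-boxes that lay under an H3K27ac peak and 15.7 for the comparison, and its part in the result was not tested.

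**Figure D4:**
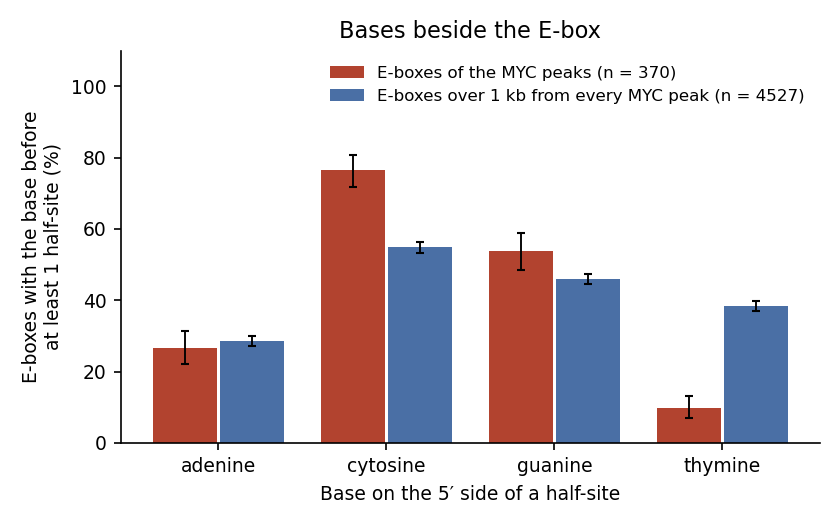
Share of E-boxes with each base on the 5′ side of at least 1 of the arms, for the 370 E-boxes of the marked E-box peaks and 4527 marked promoter E-boxes over 1 kb from every MYC peak. Bars are shares and lines are exact 95% intervals; thymine stands at 9.73% and 38.3%, cytosine at 76.5% and 54.8%.

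Written as 8 bases, the commonest form at the marked E-box peaks was CCACGTGC, which is GCACGTGG on the other strand. It made up 130 of 370 E-boxes (35.1%), against 18.7% of the comparison. The symmetric form CCACGTGG made up 83 (22.4%), against 11.3%. The symmetric form with thymine outside, TCACGTGA, is known from sites of TFEB and related proteins of lysosomal genes. It made up 7 (1.89%), against 8.11%. Of all 5170 E-boxes under an H3K27ac peak within 1 kb of a TSS, 330 (6.38%) lay within 100 bp of a marked E-box summit. That share was 12.3% (interval 9.86 to 15.1%) for the 642 of the form CCACGTGG and 11.8% (interval 9.92 to 13.96%) for the 1031 of the form CCACGTGC. It was 1.54% (interval 0.567 to 3.32%) for the 390 of the form TCACGTGA and 0.897% (interval 0.245 to 2.28%) for the 446 of the form GCACGTGA.

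The windows of 100 bp on each side of the summit were searched for 12 other motifs on both strands. A match is a description of the sequence and not of a bound factor. The shares of 3 motifs differed from those of the marked peaks without an E-box (two-sided Fisher's exact tests, Benjamini-Hochberg adjusted over 12 motifs). The GC box GGGCGG, bound by SP1 and its relatives, was in 56.3% of marked E-box peaks and 46.6% of the others (Fisher's exact test, adjusted p = 0.0352). It was in 53.8% of windows at canonical protein-coding TSSs and 24.4% of windows of all MYC peaks. With near-identical copies left out the shares were 56.8% and 51.3% (Fisher's exact test, adjusted p = 0.338). With 50 bp on each side they were 36.5% and 30.3% (Fisher's exact test, adjusted p = 0.225). With −log10 q of at least 10 they were 61.5% and 39.6% (Fisher's exact test, adjusted p = 0.00777). The windows of marked E-box peaks, with the E-boxes taken out, had a median GC content of 70.5%, against 66.9% for the others, and its part in the result was not tested. The non-canonical E-boxes CACGCG and CATGTG were less common in marked E-box peaks. CACGCG was in 24.2% against 33.5% (Fisher's exact test, adjusted p = 0.0324), and in 10.8% of TSS windows. CATGTG was in 4.40% against 14.6% (Fisher's exact test, adjusted p = 2.89e-05), and in 5.19% of TSS windows. With 50 bp on each side CACGCG did not pass (14.2% and 19.7%, Fisher's exact test, adjusted p = 0.225), and without near-identical copies its shares were 24.4% and 38.4% (adjusted p = 5.37e-04). With −log10 q of at least 10, where fewer peaks were tested, neither passed the threshold. The shares for CATGTG were then 5.50% and 14.1% (Fisher's exact test, adjusted p = 0.227), and the direction for CACGCG turned (28.4% and 26.8%).

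The other 9 motifs did not pass the test. The non-canonical CACGAG was in 9.43% and 14.4% (Fisher's exact test, adjusted p = 0.139) and CATGCG in 5.66% and 9.44% (adjusted p = 0.143). The ETS core CCGGAA was in 17.0% of both groups, the CCAAT box in 12.3% and 13.3%, and the TATA box TATAAA in 2.201% and 2.36%. CAGCTG was in 8.81% and 7.73% and the YY1 core AAGATGG in 4.72% and 6.87%. The NRF1 core GCGCATGC, which holds CATGCG on its other strand, and the cyclic AMP response element TGACGTCA were each in 0.943% and 1.07%.

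A gene was counted when the summit of a marked E-box peak lay within 1 kb of one of its TSSs. By this count 336 of 20163 protein-coding genes (1.67%) and 78 of 18702 lncRNA genes (0.417%) had a marked E-box peak. The rule requires H3K27ac, and 13941 of the 20163 and 5452 of the 18702 genes had an H3K27ac peak at a TSS. An E-box under an H3K27ac peak within 1 kb of a TSS was present at 3919 protein-coding genes (19.4%), and 333 of these 3919 (8.50%) had a marked E-box peak. Counts for 20 gene lists are given as descriptions beside these shares. The E-boxes of some of the genes named in them are shown on the plus strand of GRCh37, with both or all E-boxes of the window for HK2 and ENO1.
RPL22 (chr1:6259566-6259591, intron 1): cggcgaggccCACGTGcctcccctgg
RPSA (chr3:39448395-39448420, intron 1): ctgcggcccgCACGTGgccaggctcg
NCL (chr2:232328553-232328578, intron 1): cggggcccacCACGTGtcggcttgcc
PES1 (chr22:30987869-30987894, 5′ untranslated part of exon 1): cttcctcccgCACGTGccctgccaag
WDR43 (chr2:29117526-29117551, 5′ untranslated part of exon 1): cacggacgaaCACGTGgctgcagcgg
NME1 (chr17:49230944-49230969, 5′ untranslated part of exon 1): tgctgcgaacCACGTGggtcccgggc
ADSL (chr22:40742758-40742783, intron 1): cccgccccagCACGTGccgggctctg
EIF4G1 (chr3:184032613-184032638, intron 1): atccccggccCACGTGtgcctggccc
ENO1 (chr1:8938376-8938527, intron 1): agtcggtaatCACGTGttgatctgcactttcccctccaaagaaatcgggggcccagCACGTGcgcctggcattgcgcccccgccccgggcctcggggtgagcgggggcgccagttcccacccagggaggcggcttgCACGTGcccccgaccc
HK2 (chr2:75062093-75062163, intron 1): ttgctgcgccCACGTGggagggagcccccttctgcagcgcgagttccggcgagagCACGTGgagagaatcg
ODC1 (chr2:10588152-10588177, intron 1): gcgcgccgcaCACGTGcccggggccc
GTF3A (chr13:27998821-27998846, 5′ untranslated part of exon 1): cgtgtctcggCACGTGgcagcgcgcc
MXD3 (chr5:176739267-176739292, outside canonical transcripts): ccagccgctgCACGTGggtgccgcgg

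The list of nucleolar ribosome biogenesis, the longest, held the largest number of marked E-box peaks among the lists. The count depends on which genes the list holds, and those counted include AEN (9.80), METTL1 (6.32) and PUS7 (4.64). Marked E-box peaks were found at 29 of 101 genes (28.7%), against 1.67% of all protein-coding genes. All 101 had an H3K27ac peak at a TSS, against 13941 of the 20163 protein-coding genes. A marked MYC peak of any kind was at 45 of the 101. With −log10 q of at least 10 the count of 29 became 13, and that of all protein-coding genes was 116 in place of 336. An E-box under H3K27ac within 1 kb of a TSS was present at 69 of the 101, beside 19.4% of all protein-coding genes. The shares with a marked E-box peak were higher for nucleotide synthesis (32.1%) and small nucleolar RNA hosts (29.2%). NPM1 led with 19.6. NCL, the abundant nucleolar protein nucleolin, had 12.4 with 2 E-boxes. PES1 (10.8), of the PeBoW complex of large-subunit assembly, and WDR43 (10.5), of the small-subunit processome, had E-boxes in the untranslated part of exon 1. The same was true of 17 of the 29 genes, and the median position of the E-box was 28 bp downstream of the canonical TSS. The lowest were MDN1 (3.54), an ATPase that removes assembly factors from the large subunit, and the helicase DDX31 (3.46).

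Most ribosomal protein genes with a marked MYC peak had no E-box within 100 bp of its summit. A marked MYC peak was at 41 of 47 large-subunit genes (87.2%), yet 3 (6.38%) had an E-box within 100 bp of the summit, which left 38 genes with marked MYC peaks that were not marked E-box peaks. The 3 were RPL22 (11.4), RPL10 (5.61) and RPL30 (3.89), each with its E-box in an intron. With the E-box anywhere in the MYC peak the count was 6, and with −log10 q of at least 10 it was 1. RPL23 was not among them. Its marked MYC peak had a fold enrichment of 13.4 and its nearest E-box began 155 bp from the summit. Of 33 small-subunit genes 23 had a marked MYC peak and 6 (18.2%) a marked E-box peak, led by RPS19 (15.1), RPSA (9.71), RPS27A (6.29) and RPS26 (5.80), and 2 of the 33 had one with −log10 q of at least 10. E-boxes under H3K27ac within 1 kb of a TSS were present at 16 of the 47 and 15 of the 33 genes.

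Small nucleolar RNAs are spliced out of the transcripts of their host genes. Of 24 such non-coding genes in the list, 7 (29.2%) had a marked E-box peak, against 0.417% of all lncRNA genes. An H3K27ac peak, which the rule requires, was at a TSS of 23 of the 24 but of 5452 of the 18702 lncRNA genes. With the E-box anywhere in the MYC peak the count of 7 became 11, and with −log10 q of at least 10 it was 3. Among the 7 were SNHG15 (20.04), SNHG8 (6.67), SNHG7 (5.78) and ZFAS1 (5.35). The list was not complete, and SNHG26 (8.02) and SNHG4 (5.73), outside it, also had a marked E-box peak within 1 kb of a TSS. Marked MYC peaks were at 16 of the 24.

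Among translation factors, 7 of 51 genes (13.7%) had a marked E-box peak. PABPC1, the cytoplasmic poly(A)-binding protein, had 13.1. EIF4G1 (10.9), the scaffold of the cap-binding complex, EIF4A1 (9.82), its helicase, and EIF3E (9.79), a subunit of initiation factor eIF3, followed. Aminoacyl-tRNA synthetases, which charge tRNAs, had a marked E-box peak at 3 of 37 genes (8.11%), namely VARS1 (4.68), FARSB (4.62) and EARS2 (3.48), and at 0 genes with −log10 q of at least 10.

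Of the genes of nucleotide synthesis, 9 of 28 (32.1%) had a marked E-box peak. NME2 (14.3) and its neighbor NME1 (11.6) phosphorylate nucleoside diphosphates. ADSL (7.48), adenylosuccinate lyase, and the peak at PPAT (7.16), the committing enzyme of purine synthesis, came next. The latter lies within 1 kb of PAICS as well, which has a further marked E-box peak inside intron 1 (5.41, 2 E-boxes). Of the 11 genes of this list with a marked MYC peak, 2 lacked an E-box near the summit. The count of 9 became 5 with −log10 q of at least 10. An E-box under H3K27ac within 1 kb of a TSS was present at 14 of the 28 genes.

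Serine and one-carbon metabolism had 4 of 18 genes (22.2%). These were the methionine synthase MTR (7.69), the mitochondrial formate enzyme MTHFD1L (6.01), the S-adenosylmethionine synthetase gene MAT2A (5.41) and CBS (3.54), which begins transsulfuration. The count was 2 with −log10 q of at least 10. SHMT2 was not among the 4, since no MYC peak of the list lay near its TSSs. The study does report MYC binding at the SHMT2 E-box in HAP1 cells. In glycolysis, 2 of 20 genes (10.0%) had a marked E-box peak, the hexokinase gene HK2 (8.44, 2 E-boxes) and the enolase gene ENO1 (7.88, 3 E-boxes). In polyamine synthesis, 2 of 10 did, the ornithine decarboxylase gene ODC1 (6.75, 2 E-boxes) and the spermidine synthase gene SRM (6.35).

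RNA polymerase I and III had 4 of 39 genes (10.3%). GTF3A, the factor of 5S RNA transcription, had 8.87 with 2 E-boxes and an H3K27ac fold enrichment of 47.2. POLR1B, the second largest subunit of polymerase I, had 7.16. GTF3C4, at a start region shared with DDX31, had 3.46. Nuclear transport had 5 of 48 genes (10.4%), with IPO5 (6.56), the GTPase gene RAN (6.30), the nucleoporin gene NUP88 (5.52) and IPO4 (4.86). The E-box at IPO5 lies 23248 bp downstream of the canonical TSS, with the summit 125 bp from another annotated TSS of the gene. The list of splicing factors had marked MYC peaks at 18 of 61 genes and marked E-box peaks at 3 (4.92%). These were U2AF2 (6.30), which reads the polypyrimidine tract, SRSF2 (3.92) and PRMT1 (10.0), the arginine methyltransferase named above, which the list also holds. The SRSF2 peak has its summit 225 bp from a TSS of that gene, and a TSS of MFSD11 lies closer. With −log10 q of at least 10 the counts were 2 for the polymerases, 1 for nuclear transport and 1, PRMT1, for the splicing list.

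Cytosolic chaperones had a marked E-box peak at 2 of 23 genes (8.70%), HSP90AB1 (9.16) and its kinase-specific partner CDC37 (4.48). The E-box nearest to the CDC37 summit lies outside canonical transcripts, at −16474 bp (upstream) from the canonical TSS of CDC37. That summit is 98 bp from another annotated TSS of CDC37, and a TSS of PDE4A lies within 1 kb of it as well. Among mitochondrial ribosomal proteins, 2 of 78 genes (2.56%) had one, MRPL3 (15.5) and MRPS18B (6.53). Both counts were 1 with −log10 q of at least 10. Of 36 genes of mitochondrial protein import and chaperones 0 had one, and 1 did with the E-box anywhere in the MYC peak. An E-box under H3K27ac within 1 kb of a TSS was present at 18 of the 36. In the MYC, MAX and MLX network, MXD3 (5.59), a repressor that also pairs with MAX, was the 1 gene of 12.

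A further 3 lists, of other E-box biology and of the early cell cycle, had 0 genes with a marked E-box peak, beside 1.67% of all protein-coding genes and 8.50% of those with an E-box under H3K27ac within 1 kb of a TSS. They covered 39 genes of G1 cyclins, their kinases and origin licensing, 36 circadian clock genes and other E-box factors, and 62 lysosome and autophagy genes. E-boxes under H3K27ac within 1 kb of a TSS were present at 13, 11 and 28 of them. With a TSS limit of 5 kb, 1 clock gene and 1 lysosome gene had a marked E-box peak, and with the E-box anywhere in the MYC peak 2 lysosome genes did. The count depends on which genes the list holds. Genes of lysosomes or autophagy outside it had marked E-box peaks, among them ARSG (9.60), a lysosomal sulfatase, CLN6 (7.17 and 3.42), TPCN1 (6.37), an endolysosomal channel, TMEM192 (5.06), ULK3 (3.88) and HPSE (3.59). Of the 57 such E-boxes at lysosome and autophagy genes, 42 (73.7%) had thymine before at least 1 arm, and of the 17 at the early cell cycle genes 11 (64.7%). At the clock genes and other E-box factors it was 7 of 19 (36.8%), and at the mitochondrial import genes 13 of 28 (46.4%), beside the 38.3% of the promoter E-boxes away from MYC peaks. At the 101 nucleolar genes it was 14 of 105 (13.3%) and at purine and pyrimidine genes 5 of 22 (22.7%). At large-subunit ribosomal protein genes it was 9 of 20 (45.0%) and at splicing factors 16 of 33 (48.5%). At aminoacyl-tRNA synthetases it was 1 of 9 (11.1%) and at RNA polymerase I and III 3 of 24 (12.5%). Unlike the 38.3%, these shares cover all such E-boxes of a list, also those at MYC peaks.

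**Figure D5:**
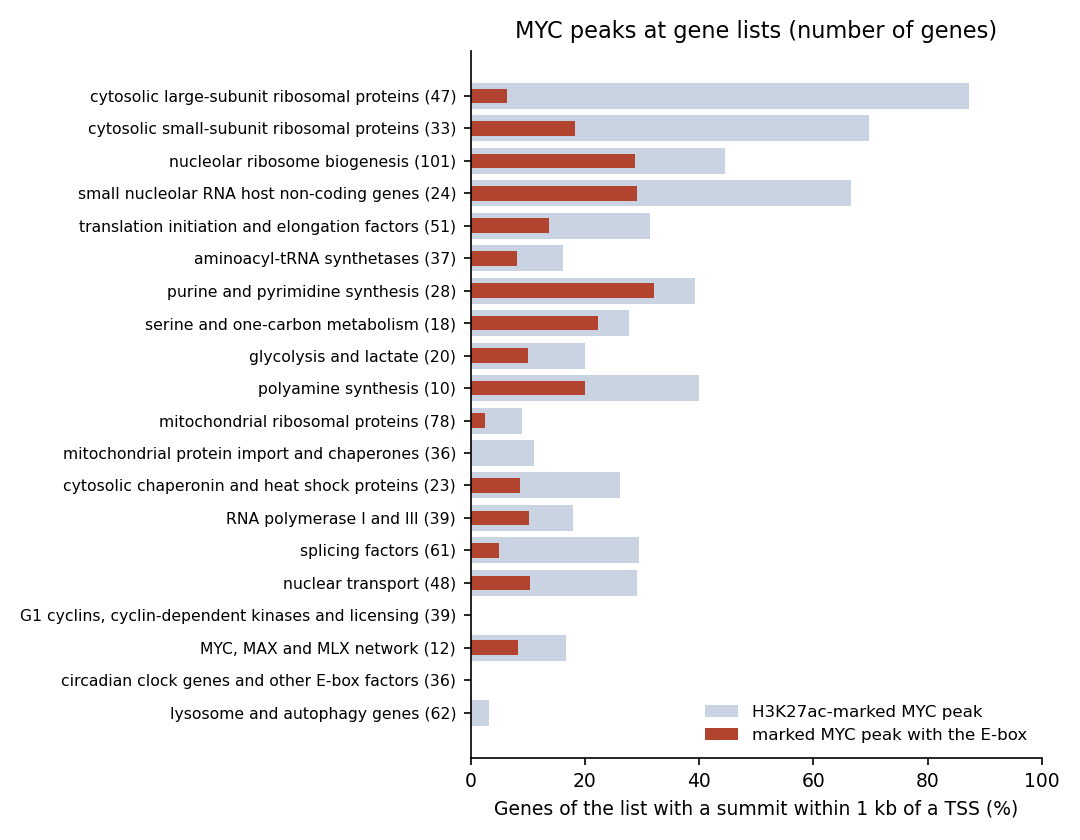
Share of the genes of each list with a MYC summit within 1 kb of a TSS, for H3K27ac-marked MYC peaks (wide bars) and for those with an E-box within 100 bp of the summit (narrow bars), with the number of genes in brackets. Large-subunit ribosomal protein genes stand at 87.2% and 6.38%, nucleolar ribosome biogenesis at 44.6% and 28.7%.

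In all, 89 of the 800 listed genes had a marked E-box peak, and 89 of the 318 peaks lay at a gene of a list. Chromosomes 2, 17 and 19 held the most, with 33 of 62, 30 of 70 and 28 of 53 marked MYC peaks, beside 40.6% of the marked MYC peaks of all chromosomes. For 12 peaks another marked E-box peak lay within 1 kb, as at CLUH and EIF4B.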

How the data were processed

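MYC, H3K27ac, IgG and input libraries of wild-type HAP1 cells, 1 each, were processed by the authors with bcl2fastq 2.20, alignment to hg19 with Bowtie2 2.2.4 and narrow peak calling with MACS2 2.1.1. The deposited values are the fold enrichment of each summit over its control, a ratio, and −log10 p and −log10 q. The deposited score is 10 times −log10 q rounded down and was not used. Coverage tracks were not analysed here. The peak lists carry no read counts, so no depth stands beside a value.

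Summits were searched for CACGTG on GRCh37 and placed on GENCODE 44 lifted to GRCh37 with Python 3.11.15, numpy 2.4.6, scipy 1.17.1, pandas 2.3.3, pysam 0.24.0 and samtools 1.23.1. Figures were drawn with matplotlib 3.10.9. Near-identical copies were windows matched elsewhere by BLAST 2.17.0 at 90% identity over 80% of their length. Shares were compared by two-sided Fisher's exact tests, adjusted by Benjamini-Hochberg within each family of 6, 4 or 12 tests at 0.05. Genes were named by rank in fold enrichment, number of E-boxes, nearness to the limits, H3K27ac level and rank within each list. The members and lists were chosen with earlier results of these data known. Alternatives were other windows, −log10 q of at least 10, other overlap rules, TSS limits and annotations, other comparison E-boxes, 1 E-box a peak and omission of near-identical copies. The scripts were tested on simulated data.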

Additional observations from a re-analysis of the deposited data

How the results depend on the processing

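For the results the text leads with, 52 alternative values kept direction and side of the threshold or moved by at most 1.5 times. The same held for 93 of the other values. Among the leading results, 7 moved by more than 1.5 times, 5 turned direction, 2 lost the threshold and 2 passed it. Among the other values, 18 moved by more than 1.5 times, 13 turned direction and 4 lost the threshold. With the E-box within 50 bp of the summit there were 199 marked E-box peaks and with −log10 q of at least 10 there were 109. At that q the protein-coding genes numbered 116 and the lncRNA genes 30, since fewer peaks were left, and with a TSS limit of 5 kb the lncRNA genes numbered 127. Of the counts per gene list, 18 moved by more than 1.5 times, most of them with −log10 q of at least 10.

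Differences are given as marked E-box peaks minus marked peaks without an E-box, in percentage points. The difference for a TSS turned to 1.03 with a limit of 5 kb and to 1.52 with −log10 q of at least 10. For a protein-coding TSS it turned to −1.05 with a limit of 500 bp and to −1.44 without near-identical copies, and for an lncRNA TSS to 0.342 with 5 kb. The share downstream of the nearest TSS passed Fisher's exact test with the E-box within 50 bp (−12.6, adjusted p = 0.0133) and with −log10 q of at least 10 (−17.3, adjusted p = 0.0358). Guanine beside the E-box did not pass the exact test within 50 bp (5.43, adjusted p = 0.168) or without a TSS limit on the comparison (3.28, adjusted p = 0.223).

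The number of other motifs past the test was 1 with 50 bp on each side and 1 with −log10 q of at least 10. With 50 bp, the differences turned to −0.737 for the ETS core, 0.514 for the NRF1 core, 1.21 for the YY1 core and −1.15 for CAGCTG. With −log10 q of at least 10 they turned to −4.05 for the ETS core, 0.246 for the NRF1 core, 2.33 for the TATA box, 1.60 for CACGCG and −2.48 for CAGCTG. Without near-identical copies they turned to −0.0174 for the ETS core and 0.0489 for the TATA box. With peaks near a TSS alone they turned to 0.0927 for the cyclic AMP response element and 0.0633 for the TATA box. For all of these the cause was not tested.

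No paired analysis was possible because each antibody had 1 library. There is no replicate error, and the peak lists carry no read counts. The annotation lists more start sites than a cell uses. Whether a gene named here depends on its E-box cannot be read from these peak lists. The study mutated the E-boxes of some of these genes in separate editing experiments, which were not used here.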
